A study of Mus musculus with 32 samples.

Results

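The 9 genes described here are interferon response genes: Irf9, Irf7, Stat2, Ifit1, Ifit3, Isg15, Ifi27, Ifitm3 and Ifi202b. They were chosen by name, as the rows with these symbols in each count file, out of 19974 gene names in all. CEL-seq2, which reads transcript 3′ ends, gave 32 libraries of RNA from mice of strain Bl/6. Levels are given as CPM, a gene's count over the library's total without spike-in rows, times 1000000, and a gene missing from a file was taken as 0. No genotype other than the strain, and no interferon treatment, is named for any group, and the age of the animals was not used here.

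The tissue samples were 3 libraries of hair follicles in anagen, the growth phase, 3 of mixed anagen and telogen follicles, and 3 of epidermis sorted by flow cytometry for Itga6 and Sca1. Sca1 is the product of Ly6a, a gene that interferon is itself known to raise. Organoids, which are keratinocytes grown as clusters in 3 dimensions, were taken 7 days after the start of culture or the last passage. Unpassaged organoids gave 1 library in each of 5 media: forskolin alone, forskolin with Fgf10, forskolin with Fgf1, forskolin with a TGF-beta inhibitor, and the inhibitor alone. Forskolin raises cyclic AMP, and Fgf1 and Fgf10 are growth factors. Early organoids were at passages 7 to 12, within 3 months of culture. They gave 2 libraries each in forskolin with Fgf1 and in the inhibitor alone, and 4 libraries each in forskolin with Fgf10 and in forskolin with the inhibitor. Late organoids were at passages 23 to 30, within 6 months, and gave 6 libraries, all in forskolin with Fgf1. Separate animals or cultures are not named for the replicates, so each p-value speaks of the spread among these libraries, which may be technical.

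Type I and type III interferons bind cell surface receptors whose kinases phosphorylate Stat2. Stat2 joins Irf9 in the complex ISGF3, which binds the interferon-stimulated response element (ISRE) in front of many antiviral genes. Interferon gamma acts mainly through another element, the gamma-activated site (GAS). Skin keratinocytes respond to each of these types, and Irf7, itself interferon-induced, amplifies the type I response.

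The library totals ran from 412582 to 3351435 counts, with a median of 1505354, and were lowest in sorted epidermis (469839 to 739531) and in part of the late organoids (412582 to 3127190). The files fell into 11 sets with identical gene lists. Each epidermis library, the anagen follicles, the mixed follicles and the late organoids had sets of their own, so tissue or passage and set cannot be told apart. Early and unpassaged organoids shared 1 set, made up of every unpassaged library and the first replicates of the Fgf10 and Fgf1 early groups. Gapdh, a glycolytic gene used by every cell, read 2118 to 3389 CPM in mixed follicles and 0.513 to 244.8 CPM in all other libraries. Krt5 and Krt14, which mark basal keratinocytes, were high in sorted epidermis (Krt5 at 8162 to 12329 CPM) and low in anagen follicles (187 to 1348 CPM). Fold changes were scaled by trimmed means (TMM), which put the median log2 difference over all genes at -0.15 for epidermis against anagen follicles and -0.08 against mixed follicles. Library totals alone put these medians at 0.28 and 0.92. They also moved the share of called genes that were higher in epidermis from 43.4% to 61.9% and from 39.1% to 77.7%, and upper quartile scaling moved it to 54.1% and 52.6%. For anagen against mixed follicles the share moved from 18.2% to 42.8%, for unpassaged organoids against epidermis from 51.5% to 40.2%, for early organoids against epidermis from 47.2% to 31.7%, and for early against unpassaged organoids from 48.1% to 26.5%. Fitted fold changes below are thus relative to the bulk of genes, while CPM levels are not. Folds given below as "at least" a value were taken from pooled counts over library totals without TMM. They are therefore not relative to the bulk of genes, and are bounds on the CPM scale only.

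The bases in front of the genes are shown first, because the ISRE is the site by which ISGF3 reaches its targets. RefSeq promoters (build GRCm38.p6, the assembly also called mm10) were found for 8 of the 9 genes. The 250 bases before each transcript start were searched on both strands for 2 runs of GAAA with any 2 bases between, a core of the ISRE, and TTCNNNGAA, a core of the GAS. Of 32851 mouse promoters of this length 2.98% held the first and 7.02% the second. Stat2, Ifit1, Ifit3 and Isg15 held the ISRE letters, and Ifi202b held the GAS letters as TTCTCAGAA. Neither was found in the windows of Irf9, which has 2 starts, Irf7 or Ifitm3. Both Irf9 windows lie inside the gene as GENCODE M21 places it, from chr14:55603571. The bases before that position were thus not searched, and nothing is said of them. Windows with a match are printed 5′ to 3′ on the gene's strand, with the matched letters in capitals, for Stat2 (chr10:128270248-128270497, plus strand), Ifit3 (chr19:34583279-34583528, plus strand), Isg15 (chr4:156200819-156201068, minus strand) and Ifi202b (chr1:173982845-173983094, minus strand). Ifitm3 (chr7:141010771-141010994, minus strand, 224 bases) stands beside them as a window without a match, and for Ifit1 (chr19:34640785-34640813, plus strand) only the stretch between its outer matches is shown.
Stat2: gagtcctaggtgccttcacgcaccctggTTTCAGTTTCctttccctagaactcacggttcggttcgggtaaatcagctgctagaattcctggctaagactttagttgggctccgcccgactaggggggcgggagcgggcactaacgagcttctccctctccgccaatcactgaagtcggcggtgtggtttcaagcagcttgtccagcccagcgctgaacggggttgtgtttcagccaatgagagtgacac
Ifit3: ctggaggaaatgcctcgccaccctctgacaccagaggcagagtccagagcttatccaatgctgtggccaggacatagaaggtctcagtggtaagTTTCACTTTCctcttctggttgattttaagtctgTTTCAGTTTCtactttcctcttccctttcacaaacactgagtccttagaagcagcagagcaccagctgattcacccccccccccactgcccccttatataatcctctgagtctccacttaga
Ifit1: TTTCACTTTCcagtctcagTTTCAGTTTC
Isg15: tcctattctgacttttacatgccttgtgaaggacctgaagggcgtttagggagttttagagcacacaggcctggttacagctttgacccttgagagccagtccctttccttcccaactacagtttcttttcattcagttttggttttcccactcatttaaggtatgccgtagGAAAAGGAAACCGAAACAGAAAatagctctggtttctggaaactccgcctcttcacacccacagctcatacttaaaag
Ifi202b: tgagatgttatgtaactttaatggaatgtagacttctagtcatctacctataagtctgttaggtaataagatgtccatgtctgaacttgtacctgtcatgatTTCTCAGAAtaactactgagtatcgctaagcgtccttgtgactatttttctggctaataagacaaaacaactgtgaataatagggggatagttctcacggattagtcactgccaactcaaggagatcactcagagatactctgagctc
Ifitm3: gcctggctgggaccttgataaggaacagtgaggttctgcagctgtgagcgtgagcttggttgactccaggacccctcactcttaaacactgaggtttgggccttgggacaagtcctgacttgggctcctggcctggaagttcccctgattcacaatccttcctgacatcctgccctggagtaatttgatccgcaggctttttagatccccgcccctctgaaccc

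Stat2 had 1 ISRE match, which began 222 bases before the start and read TTTCAGTTTC on the gene's strand. Ifit1 and Ifit3, neighbours on chromosome 19 whose products bind viral RNA ends or each other, carried the same pair of matches, TTTCACTTTC and TTTCAGTTTC, though closer to the start in Ifit1. Isg15 had 3 overlapping matches within the 100 bases nearest the start. A match is a description of letters and was not tested for binding.

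**Figure D1:**
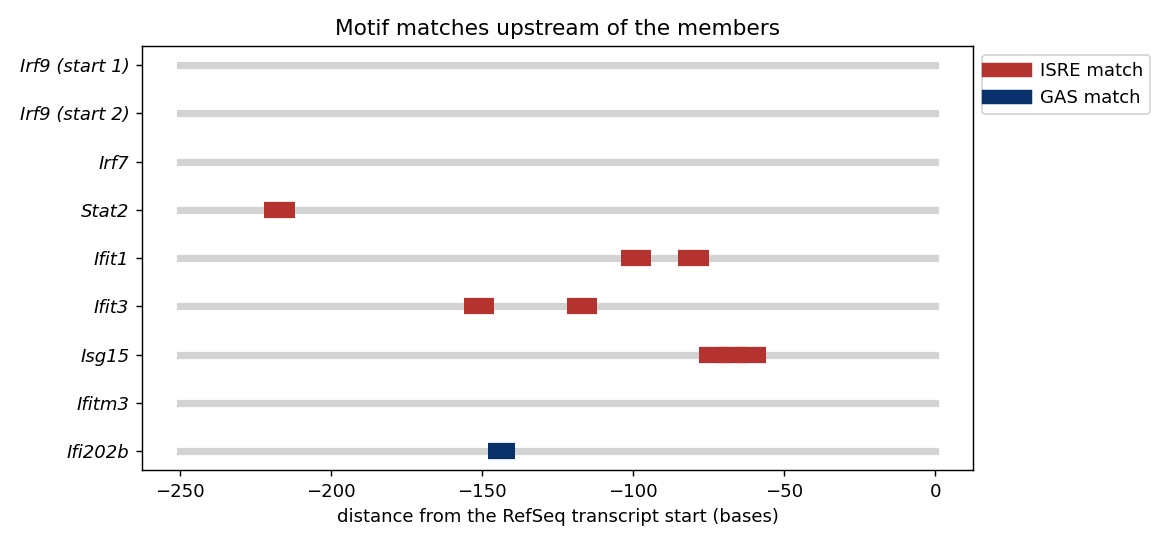
Position of motif matches in the 250 bases before each RefSeq transcript start, by distance from the start in bases (horizontal axis), 1 line per start. Red marks are ISRE letters and the blue mark is the GAS letters. Matches stand in Stat2 (1), Ifit1 (2), Ifit3 (2), Isg15 (3) and Ifi202b (1 GAS), and Ifi27 had no window to search.

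The 9 genes lie on 7 chromosomes and are protein-coding in GENCODE M21. Irf9 spans chr14:55603571-55610030, Stat2 chr10:128270559-128292849, Ifi27 chr12:103434211-103440239, Ifitm3 chr7:141009586-141010770 and Ifi202b chr1:173962568-173982744. Irf9 overlaps Rnf31 on the same strand, and Irf7 overlaps Phrf1 on the other strand. Whether counting used strand is not given in the sources used here, so their reads could be shared. Rnf31 read 8.51 to 22.2 CPM in epidermis, 2.05 to 10.2 in anagen and 1.44 to 3.58 in mixed follicles, well under Irf9 in epidermis. Ifit3, Ifitm3 and Ifi202b each have near-identical family members, and their counts are uncertain to that extent.

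The members split into a detected and a barely detected set. Irf9, Stat2 and Ifitm3 had a count in all 32 libraries, Ifi27 in 31 and Ifi202b in 29. Isg15 had a count in 19 libraries, Irf7 in 17, Ifit1 in 13 and Ifit3 in 5. Over all libraries Ifitm3 held 16951 counts, Ifi202b 2188, Ifi27 1230, Irf9 879 and Stat2 468. Ifit1 held 106, Irf7 54, Isg15 51 and Ifit3 26. A floor of 3 counts was worth 4.06 to 6.39 CPM in epidermis and 0.959 to 7.27 CPM in late organoids, a limit that covers counting error only. Irf7, Ifit3 and Isg15 passed the low-count filter in no comparison, and Ifit1 passed in those of organoids except early against unpassaged and late against epidermis.

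**Figure D2:**
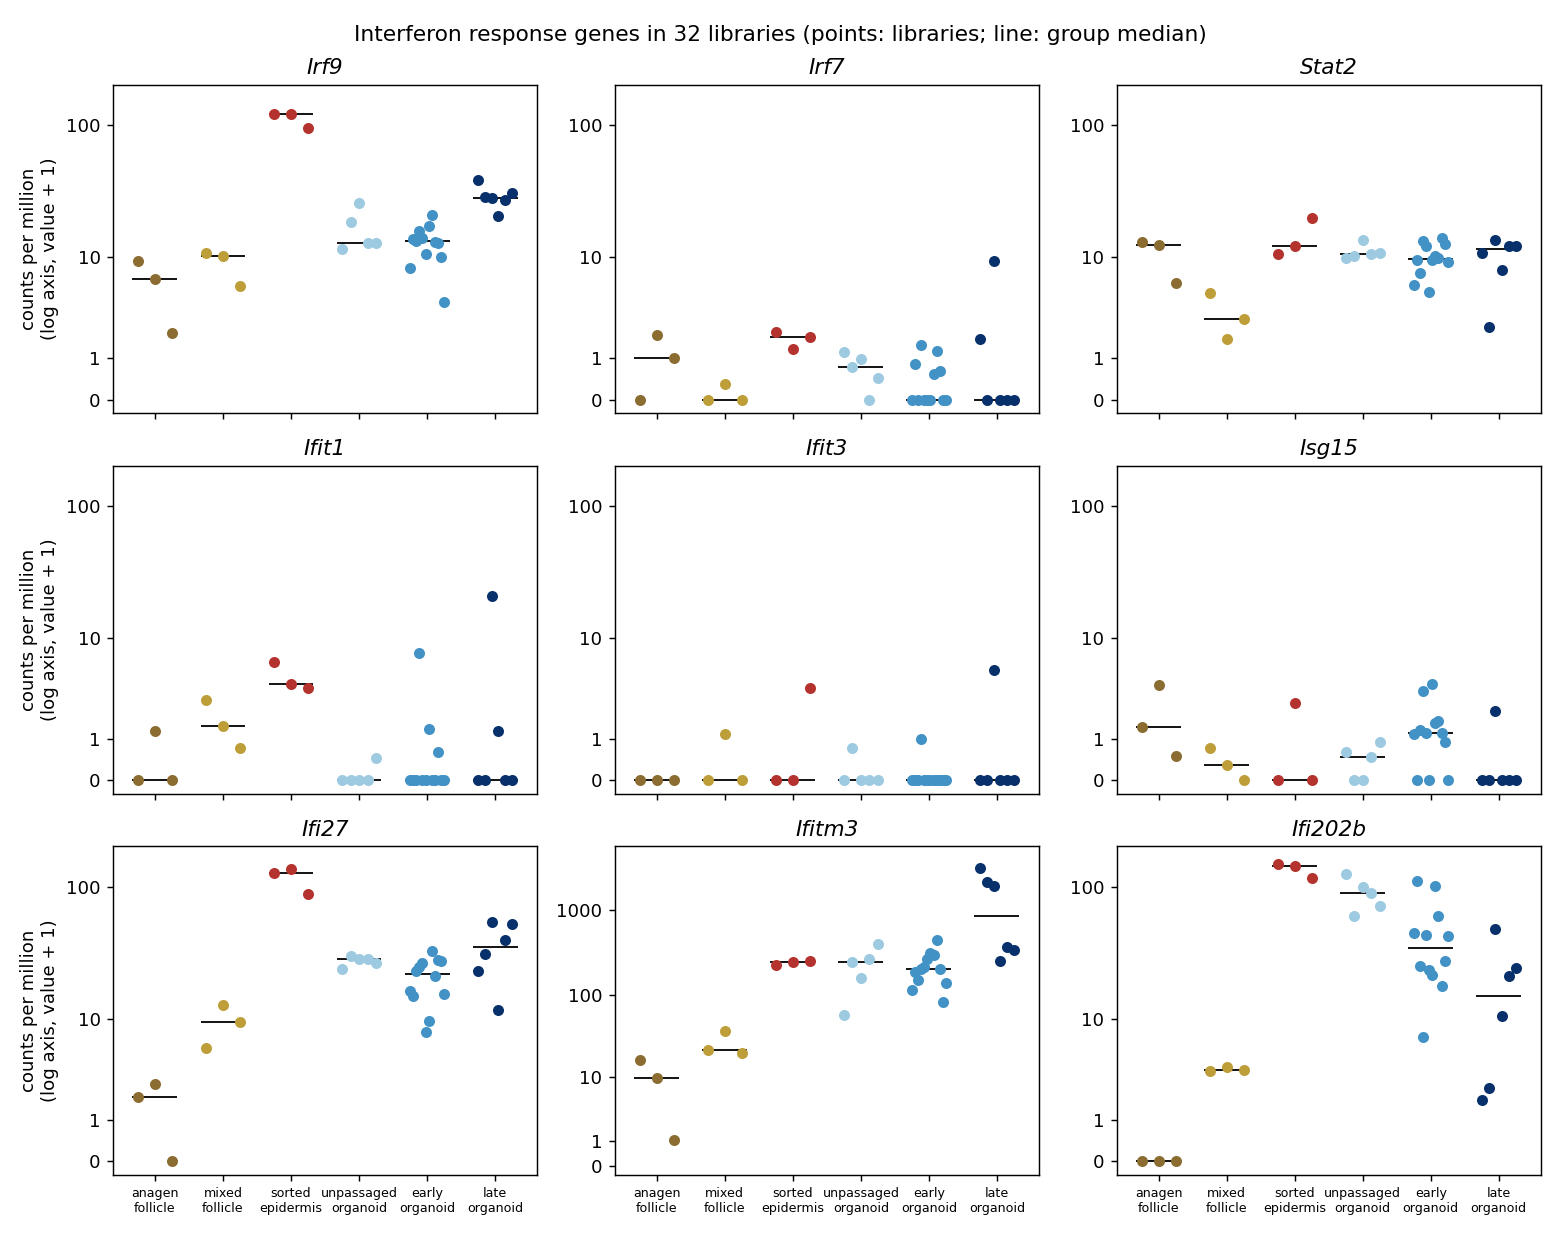
Level of each member in CPM (vertical axis, log scale of the value plus 1, with a taller axis for Ifitm3) in every library, by tissue or culture stage. Points are libraries and lines are group medians. Irf9, Ifi27 and Ifi202b are highest in sorted epidermis, where their lowest libraries read 96.2, 88.8 and 116.5 CPM, and Ifitm3 reaches 3152 CPM in late organoids.

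The question of the tissue comparison is how the epidermis between follicles differs from the follicles. Of the 5 members tested against anagen follicles, 4 were higher in sorted epidermis (Irf9, Ifi27, Ifitm3 and Ifi202b) and Stat2 was not called, where called means an adjusted p under 0.05 in edgeR's quasi-likelihood test over all genes. Of all genes tested 34.2% were called, 14.8% as higher in epidermis. Against mixed follicles the same 4 symbols were called higher, beside 30.3% of all genes called and 11.9% higher. Both comparisons use the same 3 epidermis libraries. The median over the 5 tested members was 4.43 log2 against anagen and 2.52 against mixed follicles, beside -0.15 and -0.08 over all genes. Members and the pathway lists below were chosen with earlier results of these data known. Setting them beside all genes is thus a description and no test of enrichment. In bulk samples, fewer cells of a type and less RNA per cell cannot be told apart.

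Irf9, the DNA-binding subunit of ISGF3, read 121.3, 121.7 and 96.2 CPM in the 3 epidermis libraries. It read 9.23, 6.58 and 2.05 CPM in anagen follicles and 10.7, 10.1 and 5.78 CPM in mixed follicles. Every epidermis library lay far above every follicle library. The difference was 3.83 ± 0.36 log2 (approximate SE, 3 against 3 libraries), a 14.2-fold excess, against anagen follicles with an adjusted p of 2.0e-06 in edgeR. For log2 differences, here and below, this SE is the difference's size over the square root of the test's F statistic. It rests on the spread over all libraries in the fit, not only those compared. Against mixed follicles it was 2.61 ± 0.34 log2, with an adjusted p of 3.4e-05. Both calls held in all 13 alternative settings, with adjusted p of at most 3.8e-05 and 0.000504.

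Stat2, the partner that gives ISGF3 its activation domain, did not follow Irf9. It read 10.6, 12.2 and 20.3 CPM in epidermis, 13.1, 12.5 and 6.16 CPM in anagen follicles and 5.01, 1.79 and 2.89 CPM in mixed follicles. The epidermis and anagen ranges overlapped, with a difference of -0.01 ± 0.54 log2 (edgeR, adjusted p = 0.996) whose sign depended on the scaling (0.44 with library totals alone). All epidermis libraries lay above the mixed follicles, by 1.14 ± 0.60 log2 (edgeR, adjusted p = 0.162). That difference was called with library totals alone (2.19 log2, adjusted p = 0.0126) and when only the groups compared were fitted. Irf7 had a single count in each epidermis library (1.35 to 2.13 CPM), up to 3 counts in anagen libraries and 1 count over all mixed follicles, so no difference was detectable at this depth.

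Ifi27, a small membrane protein of the interferon-induced Isg12 family, read 125.6, 135.2 and 88.8 CPM in epidermis. Anagen follicles read 1.94, 2.63 and 0 CPM, and mixed follicles 5.73, 12.8 and 9.38 CPM. The 3 groups did not overlap, with mixed follicles between the others. Epidermis stood 5.83 ± 0.70 log2 above anagen (edgeR, adjusted p = 1.5e-05) and 2.52 ± 0.57 log2 above mixed follicles (adjusted p = 0.00302), and neither call was lost in any of 13 alternatives.

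Ifitm3, which blocks viral fusion in endosomes, read 229.9, 247.5 and 255.3 CPM in epidermis. It read 16.5, 9.86 and 1.03 CPM in anagen and 22.2, 37.6 and 20.2 CPM in mixed follicles, and neither follicle group reached the epidermis range. The excess over anagen follicles was 4.43 ± 0.87 log2 (edgeR, adjusted p = 0.000868). The excess over mixed follicles, 2.11 ± 0.78 log2, passed narrowly with an adjusted p of 0.0481 and was lost in 7 of 13 alternatives. These included leaving out any 1 of the 6 libraries, with adjusted p up to 0.142.

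Ifi202b, a member of the p200 family of DNA-binding proteins, gave 238 counts in epidermis. Its epidermis libraries read 146.9, 143.3 and 116.5 CPM and its mixed libraries 3.58, 3.88 and 3.61 CPM. It had no row in any of the 3 anagen files, which was taken as 0 and is not a measured 0. Of 16342 genes listed in those files, 61 had no count in any of the 3. On that reading, and pooled over each group, it was at least 251-fold higher in epidermis than in anagen follicles, taking 3 counts over the group as the floor (edgeR, adjusted p = 6.8e-05). Against mixed follicles the excess was 4.12 ± 0.87 log2 (edgeR, adjusted p = 0.00227).

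Ifit1, Ifit3 and Isg15, 3 of the textbook interferon-induced genes and carriers of the ISRE letters printed above, were near the floor in all tissue. Ifit1 had 3, 3 and 2 counts in the epidermis libraries (6.39, 4.06 and 3.70 CPM), 2 counts over all anagen libraries and 10 over all mixed libraries. Ifit3 had 2 counts in epidermis, none in anagen follicles and 4 in mixed follicles. Isg15, a ubiquitin-like protein, had 2 counts in epidermis, 10 in anagen follicles and 2 in mixed follicles. The high genes of the epidermis, Irf9, Ifi27, Ifitm3 and Ifi202b, thus stood beside only a few counts of Ifit1, Ifit3, Isg15 and Irf7, and the depth does not allow these 4 to be compared between tissues.

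**Figure D3:**
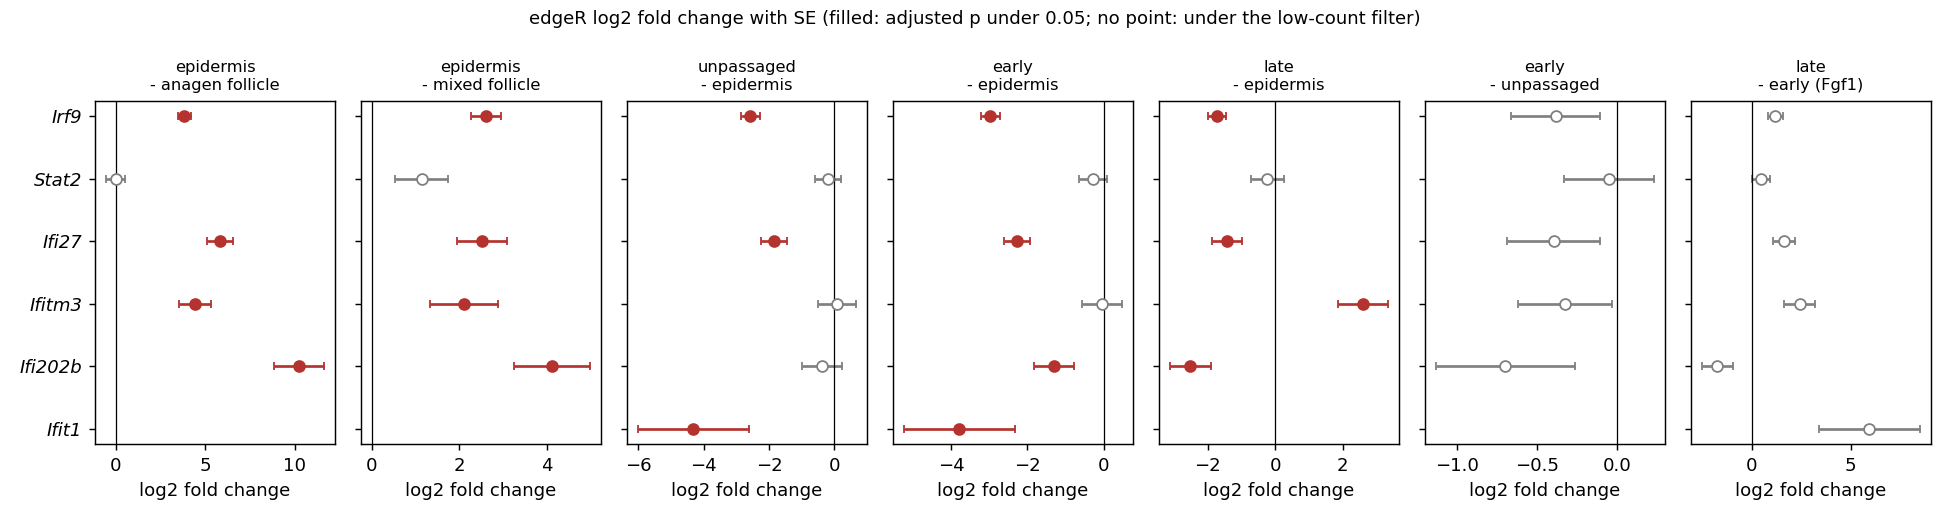
Log2 fold change with its approximate standard error, derived from the F statistic (horizontal axes, each panel on its own scale), of the members that passed the low-count filter, in 7 comparisons. Filled red points have an edgeR adjusted p under 0.05. Irf9 and Ifi27 are positive against both follicle groups and negative in all 3 organoid stages against epidermis; Ifi202b against anagen follicles and Ifit1 in late against early organoids are fitted values against a group at 0 and have no defined size.

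The other genes of the pathway were taken from lists of receptors and kinases, transcription factors, nucleic acid sensors, negative regulators and effectors. Against anagen follicles 24 of 55 tested genes were higher in epidermis and 2 lower, with a median of 1.76 log2 against -0.15 over all genes. Against mixed follicles 19 were higher and 3 lower, with a median of 1.497 log2. Of 26 tested effectors, 12 were higher against anagen follicles and none lower, while against mixed follicles 7 were higher and 2 lower. Of 4 tested negative regulators 3 were higher in both.

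At the cell surface the change was uneven. Of 9 receptors and kinases 4 were higher and 2 lower in epidermis against anagen follicles, and 4 were higher and 1 lower against mixed follicles. Ifngr1, the ligand-binding chain of the interferon gamma receptor, averaged 157 CPM in epidermis, 6.91 in anagen and 3.55 in mixed follicles. Jak1, the kinase shared by all interferon receptors, averaged 531, 53.0 and 42.8 CPM, and Jak2, which serves the gamma receptor, 66.6, 4.70 and 5.34 CPM. Ifnar1, a chain of the type I receptor, ran the other way against anagen follicles, with 17.6 CPM in epidermis, 61.5 in anagen and 18.4 in mixed follicles. Among the interferons themselves, only Ifnk had a row in the files, with 1 count in epidermis and none in follicles.

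The called pathway genes with the largest fitted differences against anagen follicles were Nlrc5, Gbp2, Igtp and Ifi27l2a. None of the 4 had a row in the anagen files, so their 0s there are taken from missing rows and their order among themselves has no defined size. Nlrc5, an activator of MHC class I genes that also dampens innate signalling, averaged 72.6 ± 23.8 CPM (SD, n = 3) in epidermis and had no row in either follicle group, at least 128-fold higher than in anagen and at least 143-fold higher than in mixed follicles. Gbp2 and Igtp, GTPases that act on intracellular pathogens, averaged 31.97 and 16.9 CPM in epidermis, at least 57.9-fold and 29.5-fold higher. Ifi27l2a, a relative of Ifi27, averaged 15.6 ± 17.3 CPM (SD, n = 3) and was at least 28.4-fold higher, with a spread as wide as its mean. Ube2l6, the enzyme that hands Isg15 to its targets, was lower in epidermis than in mixed follicles (1.16 against 61.1 CPM).

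Cells other than keratinocytes were present in sorted epidermis. The 8 T cell markers summed to 59.6 to 123.9 CPM there, 12.2 to 31.03 in mixed follicles, 1.03 to 5.35 in anagen follicles and 0 to 6.51 in organoids. The 7 Langerhans cell and class II markers summed to 370.0 to 674.7 CPM in epidermis, 79.5 to 191.6 in mixed and 46.2 to 54.4 in anagen follicles. Most of the anagen sum was Mfge8 (38.0 to 46.7 CPM), which read only 0 to 5.55 CPM in epidermis, and each of the other 6 read at most 4.86 CPM in anagen follicles. Ptprc, found on all leukocytes, read 7.40 to 17.03 CPM in epidermis and 0 in anagen follicles. The class II genes differed among themselves in culture. H2-Aa and Cd74 read 77.7 to 227.7 and 33.8 to 57.3 CPM in epidermis, and neither exceeded 1.80 CPM in any organoid library. H2-Ab1 read 62.9 to 76.6 CPM in epidermis, 12.1 to 72.8 in unpassaged, 0 to 23.1 in early and 1.92 to 118.8 in late organoids. H2-Eb1 read 159.1 to 317.1 CPM in epidermis, at most 2.91 in unpassaged and up to 75.1 in late organoids. The T cell sum, Ptprc, H2-Aa, H2-Ab1, H2-Eb1, Cd74 and Cd207 were higher in every epidermis library than in any follicle library, while Mfge8, Ciita and Cd68 were not. The former thus moved with Irf9, Ifi27, Ifitm3 and Ifi202b between tissues, and their part in the result was not tested.

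**Figure D4:**
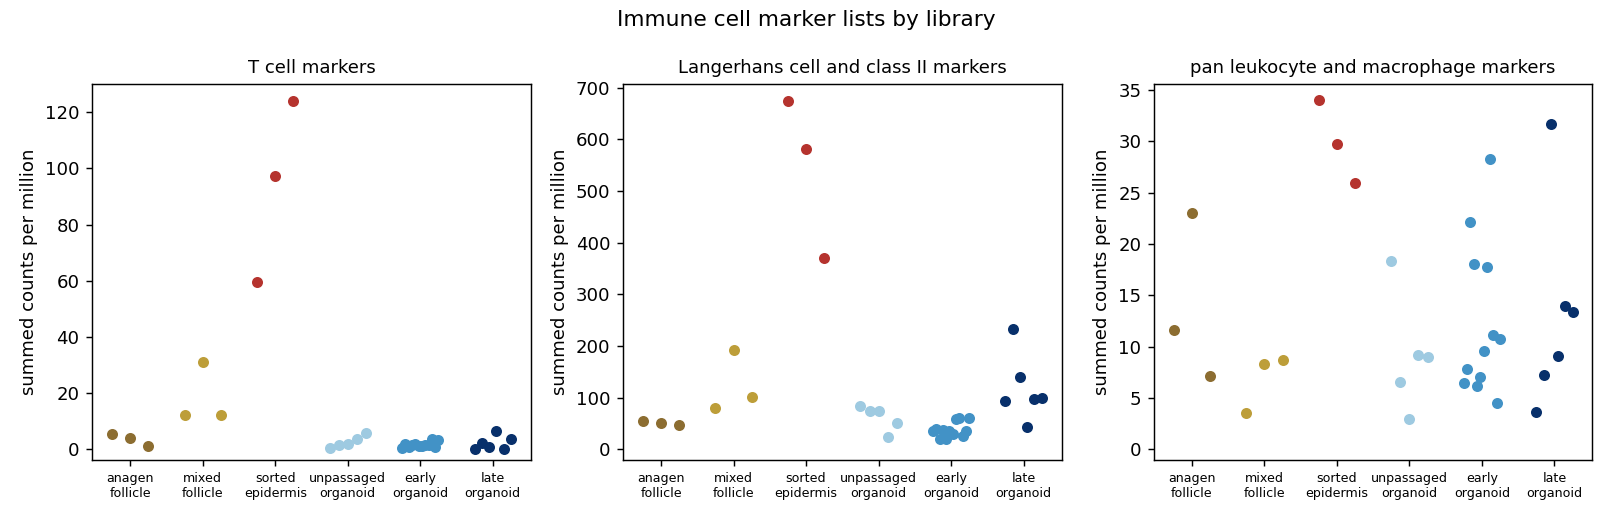
Summed level in CPM (vertical axes) of 3 immune marker lists in every library, by tissue or culture stage, with 1 point per library. Sorted epidermis is highest for T cell markers (59.6 to 123.9 CPM) and for Langerhans cell and class II markers (370.0 to 674.7 CPM), while leukocyte markers overlap between epidermis (25.9 to 34.1 CPM) and organoids.

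Between the follicle groups, 3 of 5 tested members were called and all 3 were lower in anagen follicles, beside 6.63% of all genes called, 5.42% lower and 1.21% higher. Ifi27 fell by 3.31 ± 0.71 log2 from mixed to anagen follicles (edgeR, adjusted p = 0.00679) and kept its call in 12 of 12 alternatives. Irf9, at -1.22 ± 0.36 log2 (edgeR, adjusted p = 0.0479), had overlapping ranges and lost the call in 10 of 13. Ifi202b was at least 6.91-fold higher in mixed follicles (edgeR, adjusted p = 0.0433) and lost the call in 7 of 12, among them each removal of 1 library (adjusted p up to 0.127). Ifitm3 was not called at -2.31 ± 0.82 log2 (adjusted p = 0.108), nor was Stat2 at 1.15 ± 0.57 log2 (adjusted p = 0.273). Of the 55 pathway genes none was higher and 5 were lower in anagen follicles, led by Xaf1, Ube2l6 and Dtx3l. Dtx3l, a ubiquitin ligase of the interferon response, averaged 2.17 CPM in anagen and 27.1 in mixed follicles.

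Culture was followed by setting each organoid stage against sorted epidermis, which is shared by the 3 comparisons. The 5 unpassaged libraries, each in its own medium, were fitted as a single group. Differences between media thus enter their spread, and they are not replicates of a medium. For early organoids the mean of the media was used. Irf9 and Ifi27 were lower at every stage, Stat2 was called at none, Ifi202b was lower in early and late organoids, and Ifitm3 was called only in late organoids, where it was higher. The members called were 3 of 6 in unpassaged organoids (35.5% of all genes called, 17.2% lower), 4 of 6 in early organoids (40.0% called, 21.1% lower) and 4 of 5 in late organoids (21.8% called, 9.53% lower and 12.2% higher). Every organoid library lay below every epidermis library in the T cell sum and in the Langerhans cell and class II sum, which ran from 19.0 to 232.7 CPM in organoids. The leukocyte and macrophage sums overlapped, with up to 31.7 CPM in organoids. The part of these markers in the results was not tested. All organoids were in other file sets than epidermis, so culture and set cannot be told apart here.

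Irf9 read 11.6, 18.9, 26.2, 13.0 and 13.0 CPM in the unpassaged libraries, in the order of media given above. In early organoids it ran from 4.14 to 21.5 CPM with a median of 13.3, and in late organoids from 20.8 to 39.5 CPM with a median of 28.9. No organoid library came near the lowest epidermis value of 96.2 CPM. Against epidermis the change was -2.58 ± 0.29 log2 in unpassaged (edgeR, adjusted p = 1.7e-07), -2.97 ± 0.24 in early (adjusted p = 1.9e-10) and -1.72 ± 0.26 in late organoids (adjusted p = 0.000195). These calls held in every alternative run.

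Stat2 was called at no stage. It read 9.79 to 13.6 CPM in unpassaged, 5.07 to 14.2 in early and 2.42 to 13.8 in late organoids, overlapping the epidermis at each stage. The differences were -0.19 ± 0.40, -0.27 ± 0.37 and -0.24 ± 0.49 log2 (edgeR, adjusted p of 0.763, 0.596 and 0.774). Irf7 had at most 3 counts in any unpassaged or early library.

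Ifi27 read 24.5, 30.5, 29.2, 28.9 and 27.0 CPM in unpassaged organoids, from 7.81 to 33.3 CPM (median 22.4) in early and from 11.7 to 55.3 CPM (median 35.9) in late organoids. All lay below the epidermis libraries. It fell by 1.85 ± 0.40 log2 in unpassaged (edgeR, adjusted p = 0.000662), by 2.28 ± 0.34 in early (adjusted p = 4.7e-06) and by 1.43 ± 0.44 in late organoids (adjusted p = 0.0273). The late call was lost without epidermis replicate 1 (adjusted p = 0.0832) or replicate 2 (adjusted p = 0.119), and without late replicates 1 to 3 together.

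Ifitm3 departed from Irf9 and Ifi27. It read 58.1, 245.0, 159.4, 267.8 and 407.0 CPM in unpassaged and 82.6 to 447.0 CPM (median 203.7) in early organoids. Both ranges took in the epidermis values, and the differences were 0.08 ± 0.58 and -0.04 ± 0.52 log2 (edgeR, adjusted p of 0.946 and 0.983), with signs that turned under other scalings or filters. The late libraries read 3152, 2121, 1941, 255.1, 368.3 and 337.1 CPM. Replicates 1 to 3 were thus far above epidermis while replicate 4 lay within its range. The late excess was 2.60 ± 0.73 log2 (edgeR, adjusted p = 0.0171), and leaving out any 1 epidermis library ended the call (adjusted p 0.0624 to 0.0733). Without late replicates 1 to 3 it was 0.74 log2, and without replicates 4 to 6 it was 3.35 log2. This split was chosen after the Ifitm3 values were seen and follows them, so it describes the spread and tests nothing. Late replicates 1 and 2 shared a file set, as did replicates 4 and 5, while replicates 3 and 6 each had their own. No set held libraries from both sides of the split, so the split and file set cannot be told apart.

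Ifitm2, the neighbour and near-copy of Ifitm3, showed the same split among late libraries. It read 827, 856 and 813 CPM in replicates 1 to 3 and 173, 291 and 273 CPM in replicates 4 to 6. Their relative Ifitm1 did not. It read 8.99, 0 and 7.04 CPM in replicates 1 to 3 and 158.8, 0 and 0 CPM in replicates 4 to 6. The 7 fibroblast markers summed to 203.8 to 1116 CPM in late organoids and 70.2 to 131.3 CPM in epidermis, and their part in the result was not tested. Of these Sparc, a matrix gene, read 202 to 1116 CPM in late organoids. The rest were mostly undetected there: Lum was at 0 in all 6 late libraries, Col1a1 and Col1a2 in 5, Dcn and Pdgfra in 4 and Col3a1 in 3, with a highest value of 458.1 CPM, for Dcn.

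The median of Ifi202b was lower at each later stage. It read 124.2, 60.3, 100.1, 89.6 and 71.9 CPM in unpassaged organoids, with the highest library inside the epidermis range. Early organoids ran from 7.02 to 110.9 CPM with a median of 35.6, and late organoids from 1.80 to 48.9 CPM with a median of 16.04, all below epidermis. Late replicates 1 and 2 rested on 1 count each. The differences from epidermis were -0.38 ± 0.61 log2 in unpassaged (edgeR, adjusted p = 0.667), -1.31 ± 0.53 in early (adjusted p = 0.0482) and -2.51 ± 0.61 in late organoids (adjusted p = 0.00843). The early call was lost in 12 of 22 alternatives, while the late call held in all 18.

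Ifit1 had 1 count over the 5 unpassaged libraries against 8 over the epidermis libraries, a ratio of 0.0262 (95% exact interval 0.000591 to 0.196, counting error only). It was called lower in unpassaged organoids (edgeR, adjusted p = 0.0481; lost in 10 of 14 alternatives). In early organoids 9 of 12 libraries were at 0 and 1 library reached 7.52 CPM, above every epidermis library, and the call (-3.78 ± 1.45 log2, edgeR adjusted p = 0.0389) was lost in 7 of 21. Isg15 reached 4.09 CPM in early organoids and was at 0 in 5 of 6 late libraries.

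In the pathway lists, the lower calls outnumbered the higher ones at every stage. Of 55 genes tested, 6 were higher and 14 lower in unpassaged organoids, 5 higher and 20 lower in early organoids, and 8 higher and 11 lower in late organoids. Over all genes 18.3% were higher and 17.2% lower in unpassaged organoids. The shares were 18.9% and 21.1% in early and 12.2% and 9.53% in late organoids. Nlrc5 averaged 72.6 CPM in epidermis, 3.39 in unpassaged, 3.07 in early and 0.159 in late organoids. Igtp fell from 16.9 CPM to 0.567, 0.231 and 0.217 CPM, and Ifi27l2a from 15.6 CPM to 0.366, 0.125 and 0.160 CPM. Jak1 averaged 531 CPM in epidermis, was called lower in unpassaged and early organoids (247 and 209 CPM), and was not called in late organoids (333 CPM). Ifi204, a p200 relative of Ifi202b, went the other way, with no count in epidermis and 12.9 ± 6.77 CPM (SD, n = 6) in late organoids. So did Tmem173, from the list of nucleic acid sensors, which was called higher at every stage. It had no count in epidermis and averaged 13.4 CPM in unpassaged, 6.68 in early and 11.3 in late organoids. Oasl1, also without a count in epidermis, averaged 5.74 CPM in late organoids and was called higher there. The late ranges of Tmem173 and Oasl1 overlapped the epidermis.

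Passage was asked first within the media, by setting early against unpassaged organoids in a fit that also had the medium. None of the 5 tested members was called by edgeR, and none had an unadjusted p under 0.05 or was called by DESeq2, beside 11.8% of all genes called (5.69% higher, 6.13% lower). Irf9 differed by -0.38 ± 0.28 log2, Stat2 by -0.05 ± 0.28, Ifi27 by -0.40 ± 0.29, Ifitm3 by -0.32 ± 0.29 and Ifi202b by -0.70 ± 0.44 (edgeR, adjusted p 0.301 to 0.926). Ranges overlapped for all 5. All unpassaged libraries shared a file set with only the first replicates of the Fgf10 and Fgf1 early groups. The other 10 early libraries formed another set, so passage and set cannot be fully told apart. Fewer genes were called within the shared set, as given below. Upstream of the members some receptor genes were called. Ifngr1 fell by 1.01 ± 0.25 log2 (edgeR, adjusted p = 0.0149) and Ifnar2 by 0.95 ± 0.23 (adjusted p = 0.0155), while Ifnar1 rose by 1.40 ± 0.35 (adjusted p = 0.0177). Of 36 pathway genes tested, 2 were higher and 4 lower in early organoids.

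Late passage was then set against early organoids in the medium they share, forskolin with Fgf1, with 6 against 2 libraries. None of 6 tested members was called by edgeR, beside 6.71% of all genes (2.99% higher, 3.72% lower). Of these 6, 5 had an unadjusted p under 0.05, beside 2440 of all 9919 genes tested. DESeq2 called 3 of them, beside 1137 genes in all. Irf9 read 13.96 and 10.5 CPM in the early libraries, below all 6 late libraries, with a difference of 1.19 ± 0.38 log2 (edgeR, adjusted p = 0.0650). Ifi27 read 15.2 and 7.81 CPM in early libraries (1.62 ± 0.57 log2, adjusted p = 0.0892) and Ifitm3 189.3 and 265.4 CPM (2.41 ± 0.79 log2, adjusted p = 0.0704), both overlapping the late range. The calls depended on late replicate 4, low for each of these. Without this library Irf9, Ifi27 and Ifitm3 passed in edgeR with adjusted p of 0.0397, 0.0317 and 0.0238. They depended on the method as well, since DESeq2 called the same 3 genes with replicate 4 kept. Ifitm3 also passed with no low-count filter and with a replicate block. Without late replicate 6, Ifitm3 passed as well (adjusted p = 0.0426).

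Ifi202b read 110.9 and 23.8 CPM in the early libraries with Fgf1 and was not called lower in late ones (-1.76 ± 0.78 log2, edgeR adjusted p = 0.173). Ifit1 was at 0 in both early libraries with Fgf1, and its late counts came almost all from 1 library (adjusted p = 0.160). Stat2 differed by 0.47 ± 0.46 log2 (adjusted p = 0.562). Of 44 pathway genes tested, 4 were higher and none lower in late organoids. Calls over all genes were unstable here, with 50 to 1091 when single libraries were left out. Almost none remained when only the groups compared were fitted. Whether the pathway calls held in these settings was not tested. Late and early libraries were in separate file sets, so passage and set cannot be told apart. Ifitm2 rose by 2.21 ± 0.53 log2 (105 ± 33.6 to 539 ± 324 CPM; edgeR, adjusted p = 0.0204), and Trim25, a ubiquitin ligase that activates the RNA sensor RIG-I, rose by 1.85 ± 0.39 (30.2 ± 2.60 to 115 ± 55.5 CPM; adjusted p = 0.0113). Samd9l, an antiviral factor, rose by 4.01 ± 1.10 (adjusted p = 0.0378) with overlapping ranges, and Uba7, the activating enzyme for Isg15, had no count in the early libraries and 8.51 ± 7.28 CPM in the late ones.

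Late replicate 3 stood apart for the classical antiviral genes. It held 67 of the 68 late counts of Ifit1 (21.4 CPM), 29 of 30 for Irf7 (9.27 CPM), all 17 for Ifit3 (5.44 CPM) and all 7 for Isg15 (2.24 CPM). No other late file had a row for Ifit3, and 4 of the 6 had one for Isg15. It was also the highest late library for Ifi27 (55.3 CPM), Ifi202b (48.9 CPM) and Stat2 (13.8 CPM), but not for Irf9 (28.8 CPM) or Ifitm3. Its total was the largest of the late libraries, 3127190 counts, and 3 counts were worth 0.959 CPM in it against 2.86 to 7.27 CPM in the others, so the CPM of Ifit1 and Irf7 there exceeded what the others could have missed, while those of Isg15 did not. Some other pathway genes were high in the same library. Ifi44 read 25.9 CPM there and at most 1.80 elsewhere in late organoids. Lgals3bp read 44.1 against at most 7.19, and the feedback inhibitor Usp18 24.9 against at most 5.39. Many were not. Of the pathway genes with enough late counts to rank, replicate 3 was highest for 13 of 26 effectors and 4 of 9 receptors and kinases. This library was also highest for 3 of 6 transcription factors, 3 of 9 sensors and 1 of 3 negative regulators. The share of all genes highest in it was not counted, so these counts do not set the pathway apart from other genes. Leaving replicate 3 out ended none of the late calls against epidermis and added none against early organoids. It was alone in its file set, so library and set cannot be told apart.

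**Figure D5:**
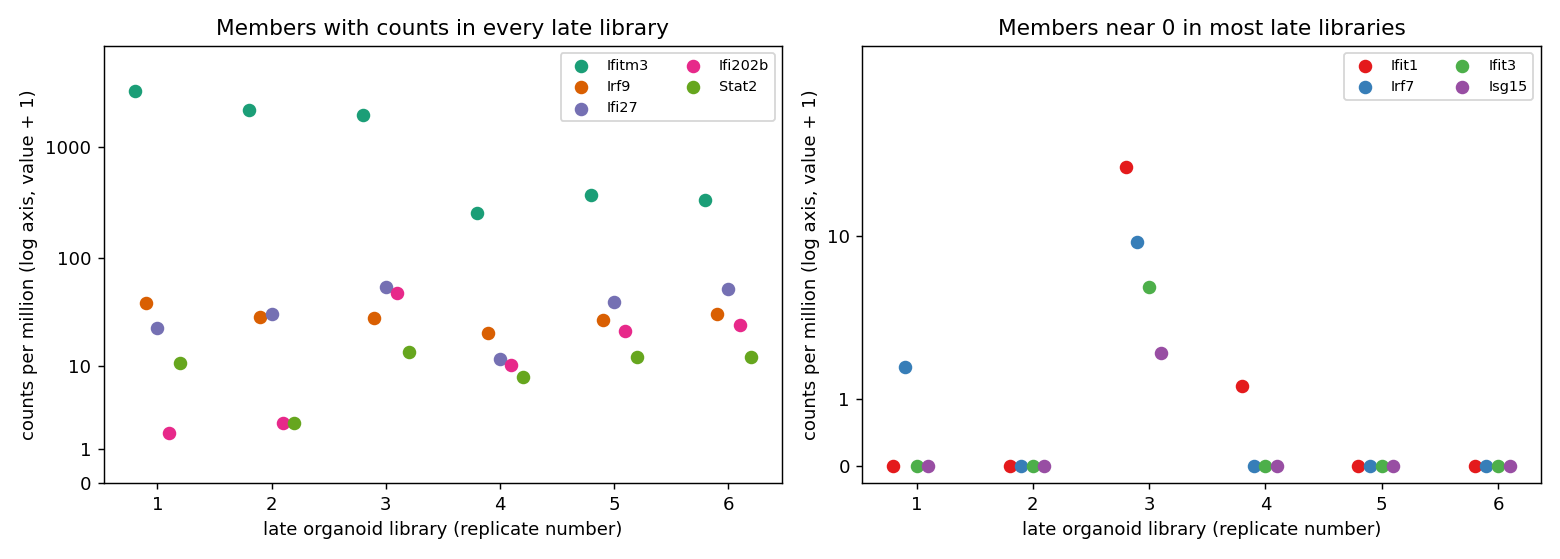
Level in CPM (vertical axes, log scale of the value plus 1) of the members in the 6 late organoid libraries (horizontal axes, replicate number). In the left panel Ifitm3 is at 1941 to 3152 CPM in replicates 1 to 3 and 255.1 to 368.3 CPM in replicates 4 to 6. In the right panel Ifit1, Irf7, Ifit3 and Isg15 rise above the rest in replicate 3.

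The media were compared among early organoids. No member was called in any of 3 comparisons by edgeR or DESeq2. Fgf1 against Fgf10 called 0% of genes by edgeR (328 at an unadjusted p under 0.05, 15 by DESeq2), and of the 6 tested members none had an unadjusted p under 0.05. Forskolin with the inhibitor against forskolin with Fgf10 called 0.575% of genes (0.262% higher, 0.313% lower), and again no member had an unadjusted p under 0.05. Forskolin with the inhibitor against the inhibitor alone called 0% by edgeR (623 at an unadjusted p under 0.05, 24 by DESeq2). There Irf9 was higher with forskolin by 1.17 ± 0.44 log2 without passing the correction (edgeR, adjusted p = 0.650): it read 17.7, 21.5, 13.3 and 12.9 CPM with forskolin and 9.99 and 4.14 CPM without.

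Levels across the 32 libraries were compared by Pearson correlation of log2(CPM + 1), as a description of libraries that share tissue, file set and depth. Among members, Ifi27 and Irf9 were most alike (0.81), then Ifi202b and Ifi27 (0.74) and Ifitm3 and Ifi27 (0.71), while Stat2 reached 0.22 to 0.39 with the others. Among 10708 genes, the 3 most like Irf9 were AA987161, Rabac1 and Svil (all 0.87), and the 3 most like Ifi27 were Anxa4 (0.91), Serf2 and Acadsb (both 0.88). Ifitm3 was closest to Ifitm2, Dram1 and Tmem176b (all 0.93), Ifi202b to Il33 (0.91), Rab3d (0.88) and Anxa2 (0.87), and Stat2 to Rab29, Ttc17 and Sacm1l (0.77, 0.75 and 0.74). Ifitm2 was thus the one interferon-pathway gene among these 15.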

How the data were processed

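CEL-seq2 was run on 32 libraries. Per the submitters' processing notes, the aligner was BWA 0.6.2-r126 and the build mm10. How reads were counted (annotation, strand, molecular identifiers) is not given in the sources used here. Deposited files hold whole-number counts per gene symbol, 1 file per library. Members and lists were chosen with earlier results of these data known.

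Counts were analysed with edgeR 4.0.16 and limma 3.58.1 in R 4.3.3: TMM scaling, filterByExpr (minimum count 10, minimum total 15), quasi-likelihood tests and Benjamini-Hochberg adjustment over all genes at 0.05. Tissue with early and late Fgf1 organoids (17 libraries, 10843 genes), passaged organoids (18, 9919), early with unpassaged organoids (16, 8890; the unpassaged library with forskolin alone has no passaged partner) and all 32 (11191; unpassaged and early organoids against epidermis) were fitted separately. Late organoids against epidermis came from the fit of 17 libraries. DESeq2 1.42.0, other scalings and filters, single-library removal and a replicate block were alternatives. The fits were tested on simulated counts. The text names the 9 members and, per comparison, up to 4 called and 2 uncalled pathway genes, receptors by level, the 3 genes most like each member and marker checks. Some genes' results are not reported here. Genes named for late replicate 3, and Ifitm1, Sparc and Gapdh, were chosen after their values were seen.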

Additional observations from a re-analysis of the deposited data

Results flagged for a closer look

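Among groups of 4 to 6 libraries, 26 member and group pairs were examined for a library far from the rest, and 10 stood out. Chance gives about 1 in 20 for continuous values, a rate that does not hold for these sparse counts: where 1 library alone has a count, as in 5 of the 10, its gap is the whole range by construction. Of the 10, 4 were late replicate 3, which was highest for Ifit1 at 21.4 CPM (next 1.30 CPM), for Irf7 at 9.27 CPM (next 1.80 CPM), for Ifit3 at 5.44 CPM and for Isg15 at 2.24 CPM, the other libraries being at 0 for the last pair.

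Another 4 were replicate 3 of early organoids with forskolin and Fgf10. It was highest for Ifit1 at 7.52 CPM (15 counts, with 0 in the other 3 libraries), for Isg15 at 3.51 CPM (7 counts, next 1.34 CPM), for Irf7 at 1.504 CPM (3 counts) and for Ifit3 at 1.00 CPM (2 counts). The values for Irf7 and Ifit3 lie at or under the floor of 3 counts. This library's Ifi202b, at 7.02 CPM, was the lowest of the 12 early libraries. In early organoids with forskolin and the inhibitor, replicate 4 was highest for Stat2 at 14.2 CPM (next 10.2 CPM) and replicate 1 for Isg15 at 4.09 CPM (3 counts, next 1.71 CPM).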

How the results depend on the processing

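Over 962 values of members under alternatives, 833 kept their direction and side of the threshold, 60 lost a call, 18 gained one and 51 changed sign; no value that changed sign was called in both settings. Stat2 for epidermis against anagen follicles became 0.040 with relative log expression scaling, 0.041 with DESeq2, 0.044 with no filter, 0.046 with only the groups compared, 0.24 with upper quartile scaling and 0.44 with library totals (-0.33 to 0.16 without single libraries). Ifitm3 for unpassaged organoids against epidermis became -0.0046 with relative log expression scaling, -0.0056 with DESeq2, -0.050 with upper quartile scaling, -0.10 with library totals and -0.15 with each medium as its own term (-0.21 to 0.32 without single libraries). Ifitm3 for early organoids against epidermis became 0.011 with no filter (-0.14 to 0.035 without single libraries). For forskolin with inhibitor against inhibitor alone, Stat2 became 0.020 with upper quartile scaling and 0.014 with library totals, and against forskolin with Fgf10, Ifi27 became 0.044 with library totals.

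Without single libraries, the other ranges that crossed 0 were, for Stat2, -0.42 to 0.078 (late against epidermis), -0.37 to 0.13 (unpassaged against epidermis), -0.44 to 0.061 (early against epidermis), -0.18 to 0.18 (early against unpassaged), -0.13 to 0.23 (inhibitor against Fgf10) and -0.26 to 0.25 (forskolin added to the inhibitor). They were -0.59 to 0.13 for Ifitm3 (early against unpassaged), -0.43 to 1.75 for Ifi202b and -5.11 to 0 for Ifit1 (Fgf1 against Fgf10). For inhibitor against Fgf10 they were -0.00040 to 0.94 for Ifi202b, -0.31 to 0.21 for Ifi27, -3.08 to 2.28 for Ifit1 and -0.012 to 0.34 for Irf9. For forskolin added to the inhibitor they were -0.15 to 0.83 for Ifi202b and -0.27 to 0.60 for Ifi27.

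Counts of called genes moved by over 1.5 times as follows. Fgf1 against Fgf10 (0) gave 15 with DESeq2, 3 with no filter, 43 with only the groups compared and 0 to 6 without single libraries. Inhibitor against Fgf10 (57) gave 138, 115, 123 and 17 to 50, and forskolin added to the inhibitor (0) gave 24, 19, 5 and 0 to 16. Early against unpassaged (1051) gave 1663 with no filter, 363 within the shared file set and 197 to 1256 without single libraries. Late against epidermis (2360) gave 1377 with only the groups compared and 1323 to 2549 without single libraries. Late against early (666) gave 1137 with DESeq2, 2049 without late replicates 4 to 6, 1 with only the groups compared and 50 to 1091 without single libraries, and anagen against mixed follicles (719) gave 401 to 674. The cause was not tested. Fewer libraries were fitted in these settings, except with DESeq2 or no filter.

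Replicate numbers did not pair samples: same-numbered deviations correlated at -0.11 to 0.22 in the tissue fit (18 pairs) and -0.21 to 0.46 in the passaged organoid fit (12 pairs). With the number as a block, early against unpassaged organoids gave 87 genes and forskolin added to the inhibitor 33. Under the block Ifitm3 for early organoids against epidermis became 0.053, Stat2 for late against early -0.13, and for forskolin added to the inhibitor Ifi27 became -0.069 and Ifit1 -0.49. Depth limits Irf7, Ifit1, Ifit3 and Isg15 most, and a single epidermis library held as few as 469839 counts.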
